A study of Mus musculus with 6 samples.

Results

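The control hippocampus was represented by 3 of the 6 RNA-Seq libraries of the study, all taken from the label of the control group, and it is described here on its own as a baseline of gene expression and exon inclusion. The controls were male wild-type C57BL/6 J mice that had received an adeno-associated virus with a control shRNA by bilateral injection into hippocampal CA1, so the libraries describe injected tissue and not untouched hippocampus. In the vector an H1 promoter drives the shRNA, which is not restricted to a cell type, and a CamkIIα promoter drives a zsGreen reporter. The paper states the age at injection and the interval to its behavioural tests. The age of the mice at tissue collection and the number of animals behind each library were not given in the sources used here. The spread reported below is therefore the spread between these samples.

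The hippocampus holds glutamatergic pyramidal neurons in fields CA1 to CA3, granule cells in the dentate gyrus, several classes of GABAergic interneuron, and glia and vessels. Neurons use alternative splicing to make variants of receptors, adhesion molecules, channels and scaffold proteins, and very short exons known as microexons are a hallmark of neuronal transcripts. Exon choice is set by RNA-binding proteins, among them hnRNP proteins, SR proteins and neuronal factors of the Rbfox, Nova, Celf, Elavl and Srrm families. Percent spliced in (PSI) is the inferred share of transcripts that contain the tested segment, from 0 (never included) to 1 (always included).

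The sequences of 11 in-frame microexons come first, because exons of this kind were the class of skipped exon with the highest share of intermediate inclusion. They were chosen after their values were seen, as well covered exons, well-known neuronal exons or exons that the study examined. Each line gives the exon in capitals with the 10 last bases of the preceding exon and the 10 first bases of the following exon in lower case, 5′ to 3′ along the transcript. The bases come from the GENCODE vM21 transcripts (GRCm38, also known as mm10), and all 11 exons lie within the coding sequence of the transcript named.
Apbb1 exon 8 of Apbb1-209 (chr7:105565946-105565951, minus strand): acagtggaagAGAGAGggactttgcc
Psap exon 8 of Psap-205 (chr10:60297537-60297545, plus strand): gatgcacatgCAGGATCAGcaacccaagg
Dctn1 exon 27 of Dctn1-203 (chr6:83197319-83197333, plus strand): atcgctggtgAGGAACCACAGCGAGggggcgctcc
Itsn1 exon 20 of Itsn1-202 (chr16:91842628-91842642, plus strand): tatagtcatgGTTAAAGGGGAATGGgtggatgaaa
Src exon 6 of Src-202 (chr2:157458843-157458860, plus strand): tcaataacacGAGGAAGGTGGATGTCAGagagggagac
Nckap1 exon 2 of Nckap1-202 (chr2:80571213-80571230, minus strand): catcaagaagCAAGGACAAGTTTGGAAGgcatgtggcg
Cltc exon 4 of Cltc-203 (chr11:86701061-86701081, minus strand): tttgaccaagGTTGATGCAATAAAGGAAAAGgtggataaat
Kif1a exon 37 of Kif1a-204 (chr1:93026832-93026855, minus strand): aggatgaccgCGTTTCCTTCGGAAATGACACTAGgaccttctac
Agrn exon 34 of Agrn-203 (chr4:156168546-156168569, minus strand): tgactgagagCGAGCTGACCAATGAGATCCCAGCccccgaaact
Git1 exon 8 of Git1-201 (chr11:77502829-77502855, plus strand): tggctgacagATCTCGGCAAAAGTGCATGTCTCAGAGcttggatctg
Clasp1 exon 21 of Clasp1-201 (chr1:118523321-118523347, plus strand): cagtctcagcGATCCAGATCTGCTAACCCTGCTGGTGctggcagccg
The exons code for short insertions of 2 to 9 amino acids. Apbb1 encodes the APP-binding adaptor Fe65, Psap the lysosomal precursor prosaposin, Dctn1 a dynactin subunit, Itsn1 an endocytic scaffold, Src the tyrosine kinase, Nckap1 a subunit of the WAVE actin regulator, Cltc the clathrin heavy chain, Kif1a a kinesin, Agrn agrin, Git1 an Arf GTPase-activating scaffold and Clasp1 a microtubule plus-end protein.

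These microexons ranged from mostly skipped to mostly included, with PSI from 0.134 to 0.856. The 21-nt exon of Cltc was mostly skipped, with PSI of 0.152, 0.18 and 0.134 in the 3 control libraries of the splicing table. The 24-nt exon of Kif1a had 0.27, 0.299 and 0.262. The 9-nt exon of Psap was included in 0.317, 0.374 and 0.355. The 15-nt exon of Itsn1 stood near the middle, with 0.525, 0.543 and 0.451. For the 18-nt exon of Nckap1 the values were 0.599, 0.601 and 0.677. The upper end held 5 exons that were mostly included. Clasp1 (27 nt) had 0.713, 0.61 and 0.773, although on only 25 to 51 junction counts. The neuronal exon of Src (18 nt) had 0.776, 0.753 and 0.76. PSI was 0.845, 0.787 and 0.797 for Apbb1 (6 nt). Git1 (27 nt) and Dctn1 (15 nt) varied least among these 5 exons, with 0.83, 0.845 and 0.84 in Git1 and 0.856, 0.852 and 0.852 in Dctn1. The 24-nt exon of Agrn varied most of the 11, with 0.212, 0.229 and 0.38 (SD 0.0924). Counting error alone gave 0.0357, computed on the share of raw junction counts, without the effective lengths that enter PSI.

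The baseline of gene expression rests on 16541837, 16995425 and 16052529 gene counts in controls 1 to 3. At least 1 count was found for 24561, 25788 and 24483 genes, and 23487 of the 52550 listed gene IDs had no count in any control. A minimum of 10 counts in all 3 libraries was passed by 16391 genes, among them 14458 protein-coding genes (66.3% of the 21819 annotated), 395 lincRNA genes and 365 antisense genes. The strand setting of the counting was not stated, so the reads of antisense and overlapping genes cannot be told apart from those of their partners. In counts per 1000000 after TMM scaling (CPM), 15298 genes had at least 1, 10458 at least 10 and 2245 at least 100 in every control.

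Protein-coding genes took 97.2% ± 0.171 of the counts, mitochondrial genes 4.73% ± 0.0895 and lincRNA genes 0.838% (mean ± SD, n = 3). The 10 highest genes held 5.51% ± 0.124 of the counts, the 100 highest 17.1% ± 0.297 and the 1000 highest 45.6% ± 0.332. Without the mitochondrial genes the first of these shares was 3.25%. The libraries are those of male animals as labelled: the Y-linked helicase gene Ddx3y had 48.4, 49 and 54.6 transcripts per 1000000 (TPM), and Xist, the RNA of the inactive X chromosome, 0.0247, 0.0717 and 0.0762 TPM.

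Levels between genes were compared only per length of annotated exon, as TPM. On that scale the mitochondrial messages led. The cytochrome oxidase gene mt-Co1 had 41255 ± 795 TPM, mt-Cytb 22030 ± 629 and mt-Nd1 14924, followed among the 20 highest by mt-Rnr1, mt-Nd2, mt-Nd5, mt-Nd4, mt-Rnr2, mt-Nd6 and mt-Tp. Gm23935 (31173) and mt-Tp (4437) are only 57 and 67 nt long, shorter than a sequencing fragment, so their TPM depends strongly on the length used. The other 9 of the 20 were nuclear protein-coding genes, Ttr, Apoe, B2m, Eef1a1, Cpe, Psap, Calm2, Calm3 and Cst3. Apoe, the main lipid carrier of the brain, had 5977 ± 403 TPM, and B2m, the light chain of MHC class I, had 4316 ± 591. Eef1a1, a translation elongation factor, had 4000 ± 210, Cpe, a peptide-processing enzyme, 3809 ± 82.7, and Psap 3117 ± 237. Ttr, the thyroid hormone carrier of the choroid plexus, had 6140 ± 5906, an SD almost as large as its mean.

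All 12 general neuron markers and all markers of astrocytes, oligodendrocytes, their precursors and microglia had 10 or more counts in every control, and the summed markers of neurons, astrocytes and oligodendrocytes differed little between libraries. The 12 neuron markers summed to 10378, 10045 and 10117 CPM, a coefficient of variation (CV) of 1.72%. Nrgn, a calmodulin-binding protein of dendritic spines, was the highest of them with 2433 ± 122 TPM, Camk2a, the kinase of the postsynaptic density, had 1934 ± 58.1, and the neurofilament gene Nefm was lowest with 110 ± 4.8. The 12 astrocyte markers summed to 10597, 10890 and 10589 CPM (CV 1.60%), from Gfap, the astrocytic intermediate filament (2279 ± 206 TPM), and Glul, glutamine synthetase (1865 ± 42.3), to Aldh1l1 (54 ± 2.12). The 12 oligodendrocyte markers summed to 8233, 8874 and 8705 CPM (CV 3.86%), from the myelin gene Mbp (1706 ± 81.7 TPM) to Aspa (11.4). In bulk tissue, fewer cells of a type and less RNA per cell cannot be told apart, so these sums are not cell shares.

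The fields of the hippocampus were each recognisable by their markers. Of the 8 CA1 markers, 7 were matched to the file and all 7 passed the count minimum, summing to 542, 446 and 473 CPM. Wfs1, an endoplasmic reticulum protein enriched in CA1 pyramidal neurons, had 148, 137 and 102 TPM, lowest in control 3. Fibcd1 and Mpped1, by contrast, were lowest in control 2 (50.9 against 73 and 68.9 TPM, and 86.2 against 111 and 109). The dentate list ran the other way to the CA1 sum, with 703, 819 and 786 CPM. Prox1, the transcription factor of granule cells, had 59.4, 66.5 and 64.9 TPM, and C1ql2, a secreted synaptic organiser, 106, 125 and 103. Control 1 therefore had the highest CA1 sum and the lowest dentate sum. The CA2 and CA3 list varied least, with 322, 314 and 314 CPM, and 9 of its 10 members passed the minimum. The tenth, Pcp4, had a mean of 0.632 TPM, although it is a known marker of CA2 and dentate neurons, and 23.7% of its exon bases overlap another gene. Calb2, found in mossy cells and interneurons, had 62.7, 50.6 and 33.6 TPM and was lowest in control 3.

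Interneuron markers were found in full. The 14 genes summed to 1577, 1470 and 1485 CPM. The neuropeptide genes Sst (627 ± 64.4 TPM), Cck (530) and Npy (231 ± 31.8) were the highest, the GABA-synthesising enzyme gene Gad1 had 130 ± 4.15, Pvalb, of fast-spiking cells, 62.6 ± 1.4, and Adarb2 was lowest with 6.43. Microglial markers summed to 1727, 1762 and 1400 CPM and were lowest in control 3. The complement gene C1qa led them with a mean of 1370 TPM, and P2ry12, the purinergic receptor of homeostatic microglia, had 63.9, 79.2 and 60.2 TPM. Oligodendrocyte precursor markers (505, 523 and 511 CPM) and endothelial markers (408, 371 and 392 CPM) were stable, and mural and fibroblast markers had 268, 204 and 253 CPM. Acta2, the actin of smooth muscle, had 48 TPM in control 1 against 22.9 and 28.7. The smooth-muscle gene Tagln had 0.108 TPM, with 67.9% of its exon bases overlapping another gene.

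Markers of other brain regions were low. Of 15 such genes, 6 had at least 10 counts in all controls, and Pmch, the hypothalamic melanin-concentrating hormone, and Gabra6, of cerebellar granule cells, had no count in any control, which allows up to 3 counts in each library. The list summed to 125, 123 and 94.1 CPM, with the thalamic kinase gene Prkcd highest at 54.5 ± 12.2 TPM.

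**Figure D1:**
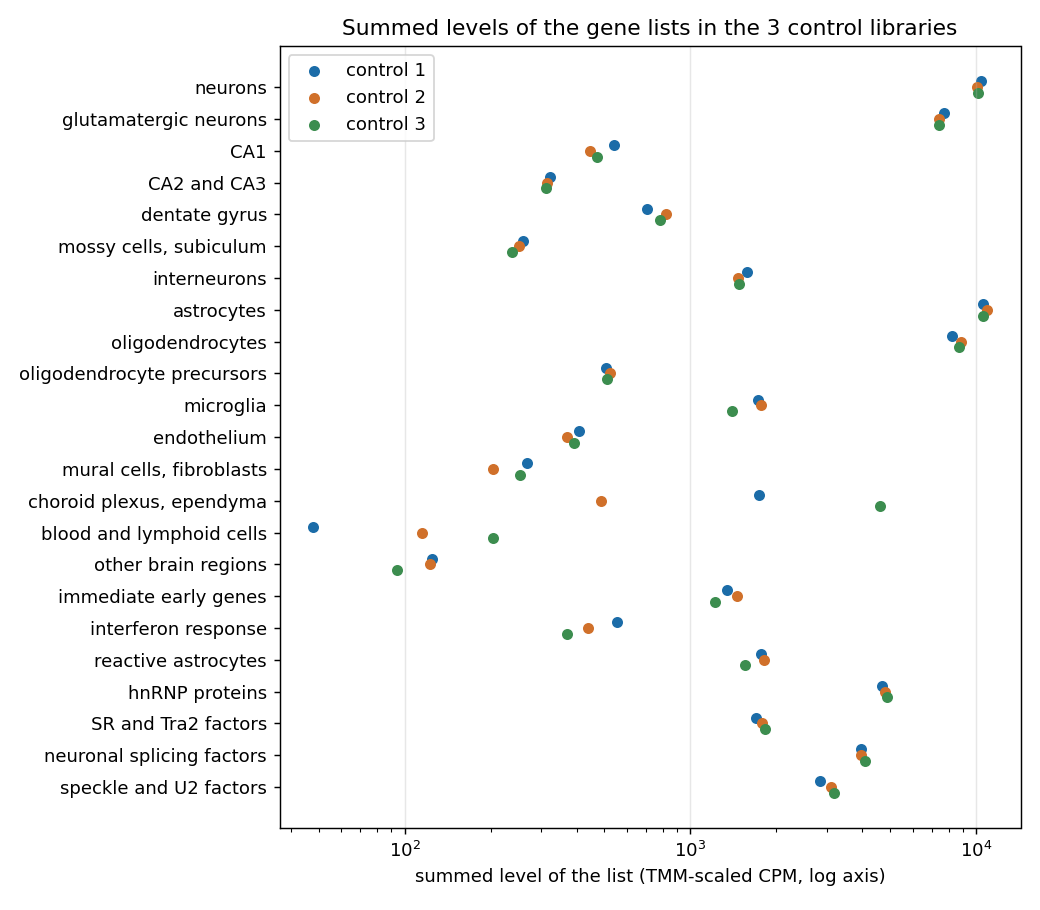
Summed level of each gene list in the 3 control libraries, in TMM-scaled CPM on a log axis, with 1 point for each control. The points of most lists lie nearly on top of each other, while choroid plexus and ependyma (488 to 4615 CPM) and blood and lymphoid cells (47.9 to 204 CPM, mostly from Jchain) are spread widely.

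Of the gene lists, that of the choroid plexus differed most between the controls. The 10 markers of choroid plexus and ependyma summed to 1734, 488 and 4615 CPM, so control 3 had 9.45 times as much as control 2. Ttr accounted for most of it, with 1495, 369 and 4131 CPM. Kl, which encodes klotho, had 39.3, 12.8 and 94.5 TPM, Folr1, a folate receptor, 23.4, 5.41 and 54.7 TPM, and Kcnj13, a potassium channel of the choroid epithelium, 6.47, 2.87 and 25.3 TPM. The ependymal cilia genes on the same list differed far less: the transcription factor gene Foxj1 had 50.3, 49.9 and 58.7 TPM and Ccdc153 had 13.2, 16.2 and 13.9 TPM. Among the 50 genes with the largest spread, of those with a mean of at least 10 CPM and 10 counts in every control, 37 shared the order control 3, control 1, control 2. They included Enpp2 (972, 365 and 2430 CPM), Mfrp (20.4, 4.20 and 60.8), Tmem72 (19.1, 4.84 and 60.5) and the bicarbonate transporter gene Slc4a5 (18.6, 3.96 and 48.2).

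The other genes of largest spread were those of antibodies. Of the 50, 12 were immunoglobulin genes or Jchain, the joining chain of IgA and IgM, and Lcn2, a lipocalin of the acute-phase response, was the remaining gene (23.5, 17.7 and 8.46 CPM). All immunoglobulin genes together summed to 367, 2088 and 2715 CPM. The heavy-chain constant genes differed in kind between the controls: Ighm (IgM) had 74.7, 133 and 785 CPM, Igha (IgA) 61, 101 and 408, Ighg2c (IgG) 41.7, 440 and 165, and Ighg2b (also IgG) 19.0, 418 and 31.1. Control 3 was highest in IgM and IgA and control 2 in both IgG genes. The light-chain constant gene Igkc had 74.6, 425 and 486 CPM, and Jchain 37.1, 123 and 263 TPM. In CPM, Jchain had 25.5, 84 and 182, and the other 10 members of the blood list summed to 22.4, 31 and 22. Defining B-cell genes were low by comparison, with Cd79a at 5.94, 17.1 and 11.3 TPM and Ms4a1 (CD20) at 0.215, 0.97 and 0.405. T-cell receptor genes summed to 19.4, 24.7 and 17.6 CPM and did not follow the antibody genes.

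The antibody variable genes were concentrated in few members. Of 218 annotated genes, 75 had at least 10 counts in any control, 49 in exactly 1 control and 12 in all 3. The 3 highest variable genes held 34.9%, 54.8% and 68.2% of all variable-gene counts in controls 1, 2 and 3. In control 1 the highest was Igkv6-17, with 17.3 CPM against 0.292 and 2.13 in the others. In controls 2 and 3 it was Igkv4-53, with 3.09, 111 and 280 CPM. Ighv2-9, with 1.39, 89.2 and 229 CPM, was next in control 3, and in control 2 it came after Igkv10-96, which was high there alone (4.18, 98.4 and 3.26 CPM). These genes are near-identical copies of each other in part, and reads can be divided between them by the counting.

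Genes of the response to activity, interferon and injury were detected in every control. The 15 immediate early genes summed to 1346, 1457 and 1215 CPM, with Arc, a regulator of AMPA receptor trafficking, highest at 398, 492 and 377 TPM. The 10 interferon response genes summed to 556, 437 and 369 CPM, 1.5 times higher in control 1 than in control 3. Bst2, the antiviral protein tetherin, had 304, 226 and 202 TPM, and Isg15 98.1, 91.9 and 60.9. The reactive astrocyte genes summed to 1763, 1809 and 1553 CPM. Serpina3n, a protease inhibitor, led with 811, 861 and 697 TPM, and the complement gene C4b had 411, 438 and 410. No uninjected tissue was analysed, so it was not tested whether these levels differ from those of untouched hippocampus.

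Away from these genes, the controls were close to each other. Pearson's r of log2 CPM over 16391 genes was 0.989, 0.988 and 0.986 for the 3 pairs, a description across genes that share the same libraries. More than a 2-fold difference was seen for 352, 373 and 454 of these genes, and for 49, 48 and 72 of the 10835 genes with a mean of at least 10 CPM. The common biological coefficient of variation (BCV), the spread between libraries beyond counting error in edgeR, was 0.109. Among the 10835 genes the median BCV was 0.0837, 70.0% lay below 0.1 and 47 (0.434%) lay above 0.3. The range ran from 0.0621 to 0.889, the latter in Ighv2-9. The 5 genes of at least 100 CPM with the smallest BCV were Dnajc7, a co-chaperone with 101, 99.9 and 101 CPM, Slc2a13, Plekhm2, Emc7 and Tmem259.

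**Figure D2:**
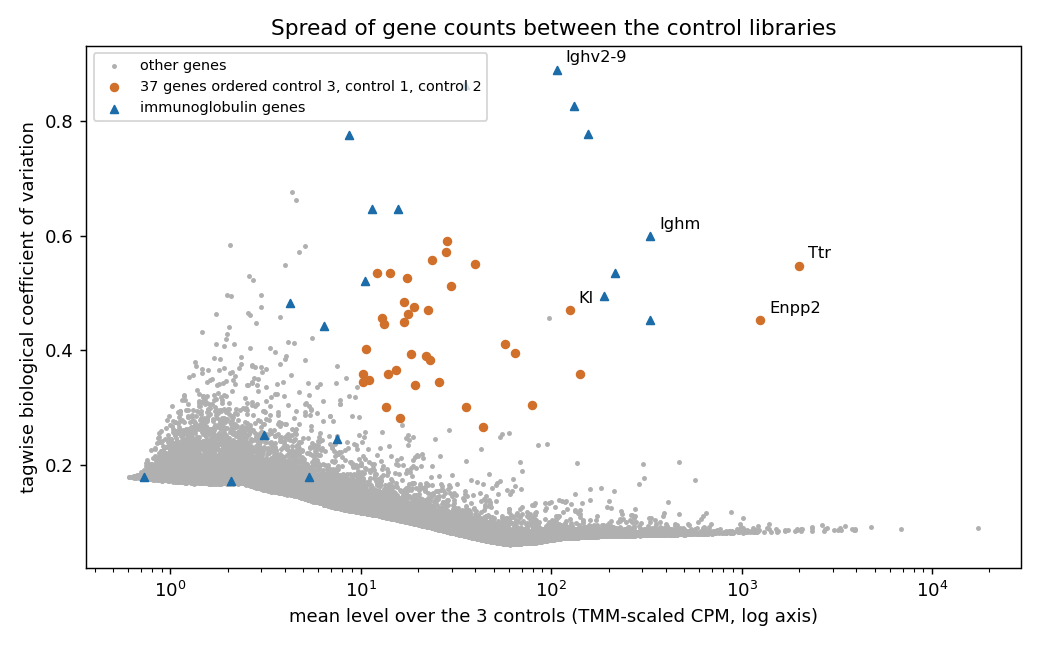
Tagwise BCV of each gene against its mean level over the 3 controls in TMM-scaled CPM (log axis), with immunoglobulin genes as triangles and the 37 genes ordered control 3, control 1, control 2 as orange points. Genes above 0.3 are in the main members of these groups or low in level, while the bulk of well-expressed genes lies near the median of 0.0837.

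The splicing regulators of the control hippocampus varied little between the libraries. All 26 hnRNP genes on the list passed the count minimum, with sums of 4663, 4811 and 4875 CPM (CV 2.28%). Pcbp1, a poly(C)-binding protein, was highest with 326 ± 7.17 TPM, followed by Hnrnpa2b1 (315) and Hnrnpa1 (289), and Hnrnpr was lowest with 16. Hnrnpdl, the gene that the study targets, had 132, 139 and 127 TPM in these controls and lay between Hnrnpl (147) and Hnrnpab (113) in level. Ptbp2, the neuronal paralogue of the polypyrimidine tract-binding protein, and Ptbp1 had 36.6 ± 1.21 and 31.4 ± 0.955 TPM. The 13 SR and Tra2 genes summed to 1694, 1776 and 1818 CPM. Srsf5 led them with 309 ± 12.2 TPM and Srsf4 was lowest with 18.4 ± 1.18, with 43.0% of its exon bases shared with another gene.

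Of the 25 neuronal splicing regulators, 23 passed the minimum, with sums of 3947, 3964 and 4074 CPM. Rbfox1 had 299, 330 and 329 TPM, above Rbfox3 (155 ± 2.44), Celf4 (145 ± 4.96) and Rbfox2 (138 ± 4.79). Srrm4 and Srrm3, the regulators of microexons, had 25.8 ± 1.5 and 35.5 ± 1.75 TPM. The epithelial factor Esrp1 (0.0939) and Mbnl3 (0.313) fell under the minimum. Among the 18 nuclear speckle and U2 genes, Malat1, a nuclear RNA, had 167, 259 and 220 TPM, and the lowest was Sf3b5 with 24.8 ± 2.64.

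The splicing table listed 40961 events in 10911 genes, with 6976354, 7089670 and 6760349 junction counts in its 3 control libraries. These libraries carry no replicate numbers and could not be matched to controls 1 to 3, so they are numbered libraries 1 to 3 in table order. Skipped exons made up 29134 events (71.1%), alternative 3′ splice sites 3525 (8.61%), mutually exclusive exon pairs 3218 (7.86%), retained introns 3022 (7.38%) and alternative 5′ splice sites 2062 (5.03%). A minimum of 20 junction counts in each library was met by 30212 events (73.8%) in 8254 genes, with median counts of 102, 105 and 99. Events with a PSI above 0.1 and below 0.9 are termed intermediate. Junction counts come from amplified reads without molecular identifiers, so counting errors given below cover counting error only. The counting SDs of single events were computed on raw junction shares, without the effective lengths that enter PSI. They are not on the same scale as the SD of PSI beside them. Several events can share an exon, so events are not independent of each other.

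Each type of event had its own distribution of PSI, and the libraries gave nearly the same shape. Skipped exons were mostly included, with median PSI of 1, 0.997 and 1 and 16.2% ± 0.195 of the 21430 covered exons at intermediate values. At 100 or more counts that share was 10.3%. Alternative 3′ sites had medians of 0.804, 0.8 and 0.813 and 36.1% ± 0.408 intermediate (n = 2469), and alternative 5′ sites 0.73, 0.744 and 0.744 and 36.8% ± 0.526 (n = 1434). Here PSI is the share of the longer exon. Retained introns were mostly removed, with medians of 0.136, 0.138 and 0.152, and 45.2% ± 1.49 of 2252 were intermediate. For each of the 5 types the share differed between libraries by far less than between skipped exons and any other type.

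**Figure D3:**
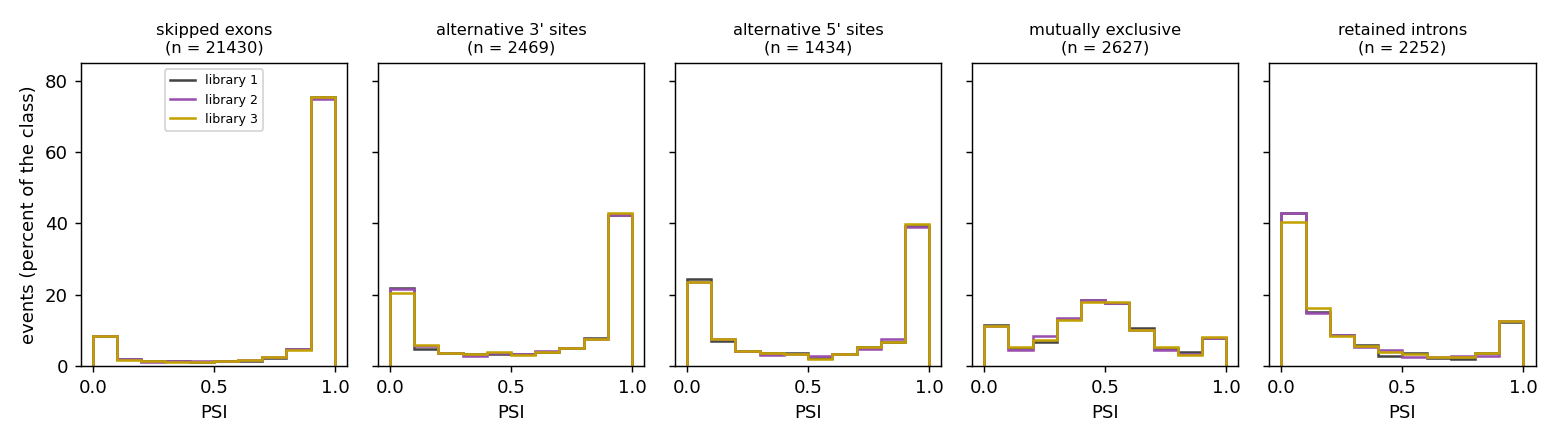
Distribution of PSI in 10 equal bins for each type of event with at least 20 junction counts in each library, as percent of the type, with 1 line for each control library of the splicing table. Skipped exons pile up at 1 and retained introns at 0, alternative splice sites gather at both ends, and mutually exclusive pairs (n = 2627) centre near 0.47.

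Mutually exclusive exons stood apart with medians of 0.471, 0.462 and 0.474 and 80.6% ± 0.134 intermediate. Being listed under this type does not show that a pair was exclusive in these libraries. In 1675 of the 2627 pairs (63.8%), both exons were also listed as skipped exons with a mean PSI of at least 0.9. Each of those values is set against skipping of that exon, so it was not tested whether the same transcripts held both. The median of these 1675 pairs was 0.469, and 85.3% were intermediate. The 192-nt pair of Syp, the synaptic vesicle protein synaptophysin, is an example (0.422, 0.419 and 0.459). Where both exons are included, 1 outer junction of each is counted for each form, so a value near the middle does not measure a choice between them. Among the 481 pairs with at least 1 exon below 0.9, 70.5% were intermediate. This division was chosen after the data were seen.

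Well-known mutually exclusive pairs were examined separately, and 21 of 23 listed genes had a covered pair (Scn1a and Scn3a had none). PSI here is the share of the exon that comes first in the transcript. The 4 pairs below are shown because their exons have equal length, the bases that differ are in capitals, and the coordinates are of GRCm38 with bases from GENCODE vM21.
Gria1 upstream exon (chr11:57309769-57309883, plus strand): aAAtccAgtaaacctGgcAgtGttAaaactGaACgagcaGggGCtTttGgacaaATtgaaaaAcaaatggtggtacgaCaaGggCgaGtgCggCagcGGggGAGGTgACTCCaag
Gria1 downstream exon (chr11:57310608-57310722, plus strand): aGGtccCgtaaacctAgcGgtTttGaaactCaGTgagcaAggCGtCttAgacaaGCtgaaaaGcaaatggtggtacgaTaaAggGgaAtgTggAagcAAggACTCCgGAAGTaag
Gria2 upstream exon (chr3:80691320-80691434, minus strand): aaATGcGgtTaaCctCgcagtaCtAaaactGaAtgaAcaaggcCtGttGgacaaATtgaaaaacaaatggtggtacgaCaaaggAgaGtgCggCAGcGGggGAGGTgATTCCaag
Gria2 downstream exon (chr3:80690404-80690518, minus strand): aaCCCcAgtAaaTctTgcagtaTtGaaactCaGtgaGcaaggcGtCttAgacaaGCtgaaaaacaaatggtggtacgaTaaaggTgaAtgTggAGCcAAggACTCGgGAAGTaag
Snap25 upstream exon (chr2:136769743-136769860, plus strand): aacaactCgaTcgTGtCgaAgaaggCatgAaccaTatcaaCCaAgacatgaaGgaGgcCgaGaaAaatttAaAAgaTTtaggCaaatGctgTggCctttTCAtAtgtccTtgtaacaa
Snap25 downstream exon (chr2:136770057-136770174, plus strand): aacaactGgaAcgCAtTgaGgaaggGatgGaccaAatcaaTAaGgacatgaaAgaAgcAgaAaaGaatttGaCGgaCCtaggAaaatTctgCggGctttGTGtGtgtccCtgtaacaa
Pkm upstream exon (chr9:59675029-59675195, plus strand): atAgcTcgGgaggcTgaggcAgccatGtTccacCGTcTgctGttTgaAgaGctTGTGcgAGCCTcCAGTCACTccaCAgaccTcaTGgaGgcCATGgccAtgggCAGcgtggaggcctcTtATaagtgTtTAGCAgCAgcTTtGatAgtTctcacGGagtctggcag
Pkm downstream exon (chr9:59675568-59675734, plus strand): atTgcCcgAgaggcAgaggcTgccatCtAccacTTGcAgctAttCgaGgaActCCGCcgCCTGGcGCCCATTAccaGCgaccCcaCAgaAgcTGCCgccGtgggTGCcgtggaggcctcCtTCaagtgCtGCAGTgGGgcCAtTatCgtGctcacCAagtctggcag
The exons of Gria1 and of Gria2, which encode AMPA receptor subunits, differ at 36 of 115 bases in each gene (68.7% identical). The exons of Snap25, a SNARE protein of vesicle release, differ at 31 of 118 bases (73.7% identical), and those of the pyruvate kinase gene Pkm at 64 of 167 (61.7% identical).

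The same gene families chose different exons. The upstream exon of Gria1 had PSI of 0.689, 0.631 and 0.666 and that of Gria2 had 0.601, 0.581 and 0.539. In Gria3 it had 0.164, 0.144 and 0.204, below both of them in every library. Gria4 had 0.72, 0.537 and 0.75 on 41 to 50 counts, and its range overlapped those of Gria1 and Gria2. Snap25 mostly used the downstream exon, with 0.0868, 0.0679 and 0.0804 for the upstream exon. Pkm mostly used the upstream exon shown above, with 0.724, 0.731 and 0.722.

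The kinase genes of the JNK family differed as strongly. Mapk10 used its upstream 72-nt exon almost alone (0.999, 1 and 0.998). The exon of Mapk8 reached 0.885, 0.82 and 0.838, and that of Mapk9 only 0.307, 0.265 and 0.251. Their 3 ranges did not overlap. Among the channels, Cacna1a, a P/Q-type calcium channel, had 0.238, 0.266 and 0.243. The sodium channel genes Scn8a (0.0256, 0.0349 and 0.115) and Scn2a (0, 0.0189 and 0.00862) mostly used the downstream exon. Slc25a3, the mitochondrial phosphate carrier, was at 0.000766, 0.00343 and 0.00307, and Dnm1, the dynamin of synaptic vesicles, at 0.29, 0.305 and 0.308. Of the 21 pairs, 13 had an intermediate mean, 5 lay at or below 0.1 and 3 at or above 0.9. In 4 of the 21, both exons had a PSI of at least 0.9 as skipped exons (2 intermediate, 1 low and 1 high). For these 4 pairs too, it was not tested whether the same transcripts held both exons. The calcium channel Cacna1d varied most (0, 0.137 and 0.323), on only 25 to 51 counts.

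**Figure D4:**
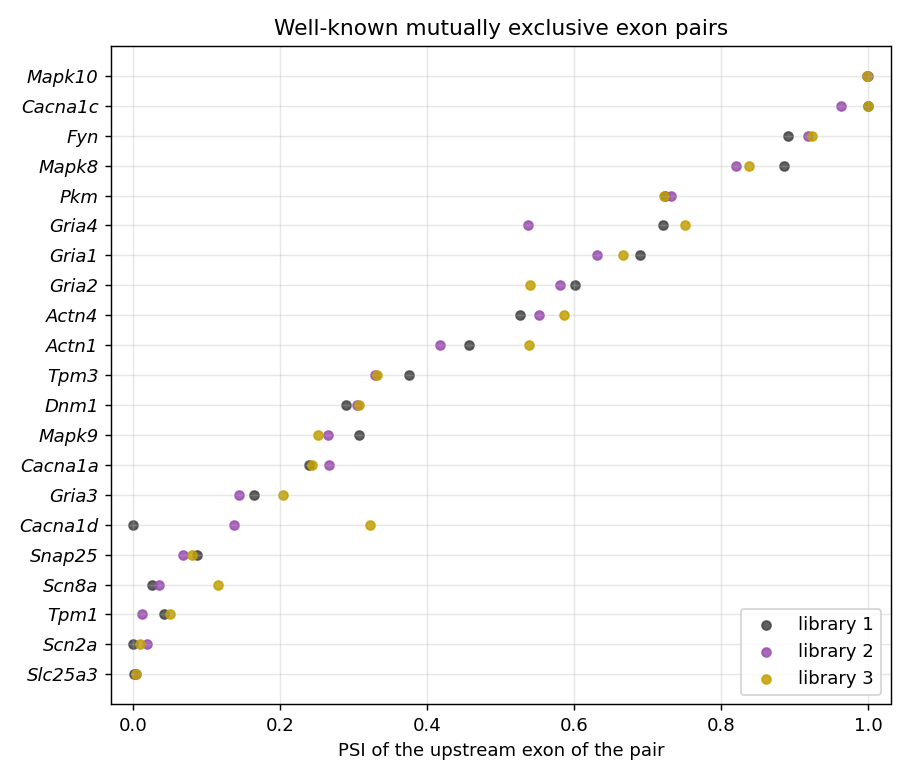
PSI of the exon that comes first in the transcript for 21 well-known mutually exclusive pairs, ordered by their mean, with 1 point for each control library of the splicing table. Slc25a3, Scn2a, Tpm1, Scn8a and Snap25 lie near 0, Cacna1c and Mapk10 near 1, and the points of Cacna1d and Gria4 are the most spread.

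Length and reading frame went together with intermediate inclusion. Of the 401 microexons of 3 to 27 nt whose length is a multiple of 3, in 312 genes, 58.1%, 56.4% and 56.1% were intermediate in the 3 libraries (56.9% ± 1.09), with a median PSI of 0.722. Of the 89 microexons of other lengths, 22.5%, 22.5% and 27% were (24% ± 2.59), with a median of 0.991. At 27 nt, 45 of 87 exons were intermediate, and at 26 nt 2 of 18. At 18 nt it was 41 of 60, and at 9 nt 20 of 27. Exons of 28 to 51 nt had 34.7% ± 0.405 intermediate when a multiple of 3 and 16.4% ± 0.435 otherwise. From 52 to 250 nt the shares were 18.7% ± 0.128 and 11.6% ± 0.415, and above 250 nt 19.6% ± 1.12 and 12.6% ± 0.273. Over all lengths they were 21.8% ± 0.025 (n = 9238) and 12.1% ± 0.347 (n = 12192). In each length class every library had the higher share in the exons that keep the frame.

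**Figure D5:**
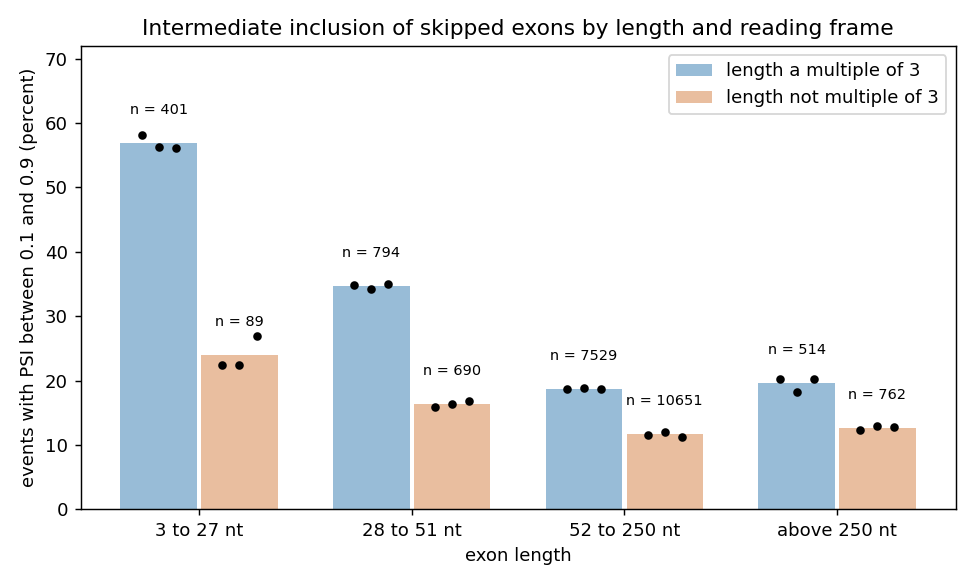
Percent of skipped exons with a PSI between 0.1 and 0.9 by exon length, for lengths that are a multiple of 3 (blue) and other lengths (orange), with bars for the mean of the 3 control libraries, points for each library and n for the exons of the class. The blue bar is the taller in all 4 length classes, and the gap is widest at 3 to 27 nt (56.9% against 24%).

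With at least 100 counts the shares were 15.4% and 6.44% over all lengths, and to 54.4% and 14.7% in microexons, so the levels changed with the depth asked for, and the exons that keep the frame remained the higher class in both. Read from the other side, a multiple of 3 was the length of 57.8% ± 0.706 of the intermediate exons, of 39.7% ± 0.119 of those at or above 0.9 and of 45.5% ± 0.148 of those at or below 0.1. Exon GC content was nearly the same in these classes, with medians between 49.3% and 50.6%. The median length was 116 nt for exons at or above 0.9 and 92 to 100 nt for the classes below.

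All 47 genes of the list of known brain cassette exons had a covered skipped exon, which need not be the known one. The best covered exon of a gene was included at 0.9 or more in 32 of them, since the table lists many exons that are nearly always included. The exon of each gene with the mean nearest 0.5, a choice made on the values themselves, was intermediate in 40 of the 47. Cell adhesion genes were among those near the middle. The 30-nt exon of Ncam1 had 0.497, 0.479 and 0.506, and a 90-nt exon of Nrxn3, a presynaptic organiser, 0.468, 0.437 and 0.448. In the synapse, Grin1, the obligatory NMDA receptor subunit, had a 111-nt exon at 0.523, 0.551 and 0.554.

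Clathrin light chains were alike in this respect, with the 54-nt exon of Cltb at 0.554, 0.588 and 0.604 and the 36-nt exon of Clta at 0.363, 0.319 and 0.327. The range of Clta lay below that of Cltb. The 183-nt exon of Ank2, a membrane-cytoskeleton adaptor, had 0.356, 0.353 and 0.39, and the 72-nt exon of Dst, a cytoskeletal linker, 0.602, 0.574 and 0.595. In Mapt, which encodes tau, the 54-nt exon had 0.00977, 0.0225 and 0.0041. The 759-nt exon that the study examined had 0.0441, 0.035 and 0.0401. Neither was included in more than 5% of transcripts by these values. A glial gene also had an intermediate event: a 123-nt exon of Mbp had 0.174, 0.178 and 0.177.

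Genes of splicing factors had alternative events of their own. Of the 26 hnRNP genes, 24 had a covered event and 21 an intermediate event. For SR and Tra2 genes these counts were 12 and 9 of 13, and for the neuronal regulators 22 and 18 of the 23 that passed the count minimum. The nuclear speckle and U2 genes had fewer, with 11 and 6 of 18. For comparison, 8141 of the 16391 genes (49.7%) had a covered event and 3942 (24%) an intermediate event, which is 48.4% of the covered ones. Covered events were found in 8.38% of the genes in the lowest expression tercile, 58.9% in the middle and 81.8% in the highest, and of the covered genes 38%, 43.3% and 53.2% had an intermediate event, so expression moves with both counts. The part of expression in the counts of the splicing factor lists was not tested.

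Hnrnpdl carried a 171-nt exon at 0.977, 0.956 and 0.919 and a 105-nt exon at 0.39, 0.499 and 0.519. The 147-nt exon of its relative Hnrnpd had 0.661, 0.711 and 0.618. Long exons with stop codons, which are known to target the messages of SR and Tra2 proteins for decay, were included at low levels. The 276-nt exon of Tra2b had 0.141, 0.116 and 0.162, the 456-nt exon of Srsf3 0.13, 0.218 and 0.123, and the 306-nt exon of Tra2a 0.00909, 0.0496 and 0.0428. The 34-nt exon of Ptbp2 was included at 0.949, 0.914 and 0.871.

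Retained introns were compared by their sequence, which could be read from annotated transcripts for 2243 of the covered introns. The 3 printed below were chosen because they lie within coding sequence and differ in retention. The first 6 and last 3 bases are in capitals, and the bases come from GENCODE vM21 (GRCm38).
Camkv intron 4 of Camkv-201 (chr9:107945865-107946078, plus strand): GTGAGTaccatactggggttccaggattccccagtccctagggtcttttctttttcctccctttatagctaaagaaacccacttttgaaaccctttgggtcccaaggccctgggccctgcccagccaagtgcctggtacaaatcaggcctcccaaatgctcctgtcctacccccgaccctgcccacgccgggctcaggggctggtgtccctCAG
Rnf112 intron 9 of Rnf112-201 (chr11:61450903-61450977, minus strand): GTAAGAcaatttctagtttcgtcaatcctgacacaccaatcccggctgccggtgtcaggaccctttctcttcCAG
Hnrnpm intron 6 of Hnrnpm-201 (chr17:33666530-33666646, minus strand): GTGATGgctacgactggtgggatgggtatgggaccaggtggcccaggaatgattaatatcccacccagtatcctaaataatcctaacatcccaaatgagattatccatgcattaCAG
Camkv, which encodes a kinase-like vesicle protein, is an intron that the study examined, and it had PSI of 0.165, 0.177 and 0.158. Rnf112, which encodes a brain RING finger protein, retained its intron in 0.611, 0.687 and 0.611. The intron of the splicing factor gene Hnrnpm stood at 0.489, 0.486 and 0.517. Their GC content was 57.9%, 50.7% and 46.2% in that order.

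Some long introns of splicing genes had intermediate values. A 1265-nt intron of the RNA helicase gene Ddx5 had 0.467, 0.439 and 0.507, a 1229-nt intron of Srsf5 0.623, 0.634 and 0.724, and a 1813-nt intron of Sf3b1, a U2 snRNP subunit, 0.551, 0.462 and 0.478. Introns up to 200 nt and longer ones had the same share of intermediate values (45.2% of 919 and 45.2% of 1333). Over the 2243 introns, 98.4% began with GT and 99.6% ended with AG. The start GTAAG was found in 23.9% of the 921 introns with PSI of at most 0.1, in 18.3% of the 788 between 0.1 and 0.5, in 17.8% of the 264 between 0.5 and 0.9 and in 11.9% of the 270 at 0.9 or more. The median length was 252, 237.5, 348 and 363 nt in the same classes, and the median GC content 50.4%, 53.6%, 53.2% and 52.8%. Pyrimidines made up a median of 75%, 70%, 70% and 70% of the 20 bases that precede the last 3 bases of the intron. These are counts over introns and carry no test.

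The commonest single distance between alternative 3′ sites was that of tandem acceptors, in which the splice sites lie 3 nt apart. They made up 461 of the distinct segments (18.9%), and the next distance, 4 nt, 76. Of the 465 events with a distance of 3 nt, 71.0% ± 1.02 were intermediate with a median PSI of 0.659, against 28% ± 0.481 and 0.87 for the 2004 others. The triplet between the sites was CAG in 325 segments, AAG in 79, TAG in 45 and GAG in 9, with median PSI of 0.609, 0.871, 0.655 and 0.989. With CAG, 261 of 325 were intermediate, and with GAG 1 of 9. Examples are shown with the triplet in capitals and 10 bases on either side as they stand in the longer transcript.
Itpr1 acceptor (chr6:108432646-108432648, plus strand): ctccacagagCAGgagcttgaac
Tmeff1 acceptor (chr4:48617232-48617234, plus strand): ggagaaggagCAGaggaggaagg
Pcbp3 acceptor (chr10:76771037-76771039, minus strand): ccacccagatCAGttgaccaagc
Itpr1, the IP3 receptor of the endoplasmic reticulum, was near the middle in all libraries with 0.479, 0.527 and 0.462. Tmeff1, a transmembrane protein, and Pcbp3, a poly(C)-binding protein, varied more, with 0.584, 0.76 and 0.799, and 0.708, 0.534 and 0.75. Both were among the 3 alternative 3′ sites with the largest SD (0.114 each) of those with at least 100 counts in each library, the third being a 168-nt segment of the corepressor gene Ncor1 (0.783, 0.61 and 0.537). Alternative 5′ sites 4 nt apart (53 segments, 3.78%) had a median PSI of 0.197, so the shorter exon was the common form.

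The spread of PSI between the control libraries was larger than counting error. The median SD was 0.0109 for skipped exons, 0.0236 and 0.0257 for alternative 5′ and 3′ sites, 0.0283 for retained introns and 0.0409 for mutually exclusive pairs. Over all events it was 0.0159, and over the 7962 with an intermediate mean 0.0569. That SD fell with depth, from 0.0764 at 20 to below 100 counts to 0.0384 at 100 to below 1000 and 0.0123 at 1000 or more. The ratio of observed variance to that of binomial counting was 2.26 over 7721 events whose pooled inclusion share lay between 0.1 and 0.9. It was 2.48 for skipped exons, 2.41 for retained introns and 1.95 for mutually exclusive pairs. By depth it was 2.24, 2.27 and 2.97 over all types. The ratio at the greatest depth was above that at the lowest for skipped exons, retained introns and alternative 3′ sites, and below it for alternative 5′ sites (2.24, 1.90 and 1.80) and mutually exclusive pairs (1.93, 1.99 and 1.62), on 9 to 73 events of each type. Between any pair of libraries, intermediate events differed by a median of 0.0637 to 0.0648, and 8.78% to 9.24% of them by more than 0.2. Pearson's r across these events was 0.894 to 0.896, over events that share genes and libraries.

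Single events had an SD of PSI several-fold above the SD that counting gave for raw junction shares. Among events with at least 100 counts in each library, the largest SD was in Phkg2, a subunit of phosphorylase kinase. Its 328-nt intron had PSI of 0.557, 0.752 and 0.894 (SD 0.169 against 0.0292 from counting), and an alternative 5′ site that starts at the same position had 0.63, 0.856 and 0.921, so both events ordered the libraries alike. The skipped exons with the largest SD at that depth were in 3 genes. Phf24 had 0.645, 0.763 and 0.942, Angel2 0.896, 0.782 and 0.607, and Slc4a10, a neuronal bicarbonate transporter, 0.812, 0.97 and 0.681. Library 3 was the highest in Phf24 and the lowest in Angel2 and Slc4a10. The adhesion genes that the study examined belonged to this group: the 84-nt exon of Cadm1 had 0.705, 0.555 and 0.523 (SD 0.0974 against 0.0306) and the 162-nt exon of Chl1 0.767, 0.643 and 0.571 (SD 0.0994 against 0.031). In both, library 1 was the highest and library 3 the lowest. The examined microexon of Agrn, described above, also had an SD well above its counting SD. Several other examined exons had an SD within or close to counting error. Git1 had 0.83, 0.845 and 0.84, and Git2 0.552, 0.584 and 0.513. PSI was 0.514, 0.49 and 0.553 in Epb41l3, a membrane skeleton protein, and 0.198, 0.196 and 0.23 in Cttn, the actin regulator cortactin. The exons of Dlg4, the scaffold PSD-95 (0.984, 0.991 and 0.99), and Cask (1, 1 and 1) were almost always included. A different exon of Cask, of 18 nt, had 0.729, 0.508 and 0.536 on 40 to 58 counts.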

How the data were processed

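RNA was taken from control hippocampus with Trizol, poly(A) RNA was selected with oligo(dT) beads, and libraries were read as pairs on an Illumina NovaSeq. The authors deposited whole-number read counts per gene for each library and a splicing table made with rMATS on GRCm38, whose junction counts and effective lengths were used. The submitters' processing notes name Bowtie 1.1.2, HISAT2 2.1.0 and HTSeq 0.6.1 without roles. The PSI values deposited by the authors are fractions (0 to 1). PSI recomputed here from counts and effective lengths differed from them by at most 0.0005. Columns of the authors' comparison were not used.

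Genes with at least 10 counts in all 3 controls were kept. CPM with TMM factors and BCV came from edgeR 4.0.16 in R 4.3.3. TPM used the union of exons in GENCODE vM21 (GRCm38). Events needed 20 junction counts in each library. Variance estimates were checked on simulated data. No comparison between groups was made and no test was run. Genes were named as the 20 highest in TPM, the 10 with the largest and 5 with the smallest BCV, and the highest and lowest members of each list. Named events were the best covered of each listed gene, and the 3 most variable and 3 nearest 0.5 of each type. Some named items are not reported here. Members and lists were chosen with earlier results of these data known.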

Additional observations from a re-analysis of the deposited data

How the results depend on the processing

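No paired analysis was possible because the description covers 1 group and runs no test. Of 242 values recomputed under an alternative, 188 were labelled unchanged, including all 120 values of the gene lists. Gene numbers were judged by a fold limit and the other values by a spread. The leave-one-out means of the gene lists could not leave that spread, so their label carries no information. The planned splice site comparison of skipped exons was replaced by retained introns, which annotated transcripts cover, as a choice made after seeing the data, because no genome sequence was used here. Asking for 100 counts gave a common BCV of 0.0873. Without mitochondrial genes, the 10 and 100 highest genes held 3.25% and 13.6% of the counts. Asking for 100 junction counts gave intermediate shares of 10.3% for skipped exons, 30.2% for alternative 3′ sites, 27.5% for alternative 5′ sites, 81.9% for mutually exclusive pairs and 37.2% for retained introns. By class it gave 54.4% and 14.7% for microexons that are and are not a multiple of 3, 15.4% and 6.44% for all such exons, 37.4% and 37% for introns up to and above 200 nt, and 21.6% for alternative 3′ sites other than 3 nt apart. Asking for 1 count gave 20.1% for skipped exons, 39.1% for alternative 3′ sites, 39.1% for alternative 5′ sites and 77.9% for mutually exclusive pairs. Without effective lengths the 5 types had 14.2%, 35.4%, 35.5%, 79.8% and 54.5% in the order above, exons that are and are not a multiple of 3 had 19.9% and 9.85%, the short and long introns 55.7% and 53.7%, and 3′ sites other than 3 nt apart 27.1%. With 1 event for each segment the share was 15.9% for skipped exons, 83.5% for mutually exclusive pairs and 21.4% for exons that are a multiple of 3. The median SD of PSI over all events was 0.00744 at 100 counts and 0.0569 over intermediate events alone, and the variance ratio was 2.28 at 100 counts. The median share of pyrimidines was 75% at 100 counts and 62.5% over bases 3 to 50. The causes were not tested.

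Leaving out 1 library gave 16609 to 16740 genes, 15474 to 15544 of them at 1 CPM or more, a BCV of 0.0944 to 0.122, and shares of the 10 and 100 highest genes of 5.44% to 5.55% and 16.9% to 17.2%. The mean of the choroid list ranged from 1111 CPM without control 3 to 3175 without control 2, and that of the blood list from 81.5 without control 3 to 159 without control 1. Intermediate shares ranged from 16.4% to 16.7% for skipped exons, 36.4% to 36.8% for alternative 3′ sites, 36.5% to 37.5% for alternative 5′ sites, 80.3% to 80.7% for mutually exclusive pairs and 44.7% to 45.9% for retained introns. They ranged from 56.2% to 57.2% and 22.9% to 25% for microexons that are and are not a multiple of 3, from 22.0% to 22.2% and 12.2% to 12.5% for all such exons, and from 28.2% to 29.0% for 3′ sites other than 3 nt apart. The median SD of PSI was 0.0101 to 0.0106 and the variance ratio 2.26 to 2.30.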

Other observations

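Some genes held many intermediate events. Anks1b, a postsynaptic scaffold, had 17 such events, and Celf2, a splicing regulator, Kif21a, a kinesin, and Sdccag3 had 15 each. Events of 1 gene share exons and reads, so these counts are not numbers of separate choices.

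The ratio of control 3 to control 2 was nearly the same in a pair of antibody variable genes chosen after their values were seen. Control 3 had 2.57 times the CPM of control 2 in Ighv2-9 and 2.53 times in Igkv4-53, against 5.88 times in Ighm and 0.376 times in Ighg2c. It was not shared by Igkv10-96, which had 98.4 CPM in control 2 and 3.26 in control 3. Rearranged junctions of these genes were not analysed here.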
